A study of Rattus norvegicus with 12 samples.

Results

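The endoplasmic reticulum (ER) stress response genes described here are *Hspa5*, *Hsp90b1*, *Pdia4*, *Calr*, *Herpud1*, *Ern1*, *Atf6*, *Atf4*, *Xbp1* and *Ddit3*. They were taken by gene name and are 10 of the 37209 genes in the count file. All 10 passed the filter on low counts, which left 20944 genes for testing. The tissue was a punch of the central nucleus of the amygdala (CeA) from 12 adult male wild-type Sprague Dawley rats aged 14 to 16 weeks. The 6 rats of the chronic intermittent ethanol (CIE) group breathed ethanol vapor and air in daily alternation for several weeks, and the 6 Control rats breathed air throughout. All rats were killed when the last vapor session ended, so the CIE group was sampled intoxicated, not in withdrawal. Poly-A RNA-Seq was run with 1 library per rat, and rats are numbered 1 to 6 (CIE) and 7 to 12 (Control).

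Proteins that enter the ER lumen are folded there by chaperones and disulfide isomerases. When unfolded protein accumulates, sensors in the ER membrane start the unfolded protein response. IRE1 (gene *Ern1*) splices the *Xbp1* mRNA, PERK (gene *Eif2ak3*) phosphorylates the translation factor eIF2alpha and so favors translation of ATF4, and ATF6 is cut to release a transcription factor. Their targets include the lumenal chaperones, the ER-associated degradation (ERAD) component *Herpud1*, and *Ddit3* (CHOP), a transcription factor tied to cell death. In brain, ER chaperones are present in neurons and glia, and secretory and myelinating cells carry a high load of ER protein. Counts per gene do not show *Xbp1* splicing, ATF4 translation or ATF6 cleavage.

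Several of these genes carry promoter elements known from work on ER stress, and the elements upstream of 5 of them are shown so that the genes that share them can be compared below. Promoters of 8 of the 10 genes were found in the RefSeq table (build GRCr8, 33469 promoters of 250 bases before and 50 after the start). The ER stress element (ERSE), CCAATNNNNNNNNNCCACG on either strand, was found in *Hspa5*, *Hsp90b1*, *Xbp1* and *Calr*, against 0.0657% of all promoters. The related element ERSE-II, ATTGGNCCACG, was found in *Herpud1*, against 0.0508% of all promoters. Each line gives the gene's own strand from 5′ to 3′, all of it upstream of the start, and capitals mark the fixed letters of the element or, in *Calr* and in the downstream copy in *Hsp90b1*, of its reverse complement.
Hspa5: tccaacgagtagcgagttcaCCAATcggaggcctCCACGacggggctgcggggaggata
Hsp90b1: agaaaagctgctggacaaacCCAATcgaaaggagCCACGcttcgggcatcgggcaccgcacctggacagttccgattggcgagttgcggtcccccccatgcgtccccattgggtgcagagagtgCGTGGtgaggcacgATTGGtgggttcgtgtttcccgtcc
Xbp1: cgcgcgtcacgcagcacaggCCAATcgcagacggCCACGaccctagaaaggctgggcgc
Calr: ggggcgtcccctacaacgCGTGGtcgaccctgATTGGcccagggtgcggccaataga
Herpud1: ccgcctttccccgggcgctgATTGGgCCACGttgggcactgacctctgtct
These stretches lie at chr3:38452953-38453011 (plus strand) for *Hspa5*, chr7:23012327-23012489 (minus) for *Hsp90b1*, chr14:84604538-84604596 (plus) for *Xbp1*, chr19:40213117-40213173 (plus) for *Calr* and chr19:10614801-10614851 (minus) for *Herpud1*, all in GRCr8. The core TGACGTGG, bound by XBP1 and ATF6, was in none of the 8 promoters and in 0.595% of all promoters. The C/EBP-ATF element TGATGNAAT was in none of the 8 and in 1.09% of all. A match of letters is a description of the window and not a binding site shown in this tissue.

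At a nominal p below 0.05, *Calr* was 17.5% lower, *Pdia4* 17.0% lower and *Hsp90b1* 10.3% lower, whereas *Herpud1* was 13.8% higher and *Ern1* 17.1% higher in the CIE group. None of the 10 genes passed 5% FDR in edgeR's quasi-likelihood F test, against 0.363% of all genes tested. At a nominal p below 0.05, 5 of the 10 passed, 2 higher and 3 lower, against 8.31% of all genes tested. The genes were chosen with results of these data known, so this count is a description. No member had CIE and Control values that did not overlap, a state found in 0.893% of all genes. DESeq2 and limma-voom each called 1 member at 5% FDR, in both cases *Calr*, and so did edgeR without CIE rat 3. Over all genes, these runs called 286 of 29389, 234 of 20944 and 95 of 21165. Leaving out a rat moved the nominal count between 3 (without CIE rat 1, 4 or 6, or Control rat 11) and 6 (without CIE rat 3). The shares of all genes were 6.66%, 6.58%, 9.26% and 6.39% in the former runs, in that order, and 13.3% in the latter. With limma-voom 7 members passed a nominal p below 0.05, against 17.2% of all genes.

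**Figure D1:**
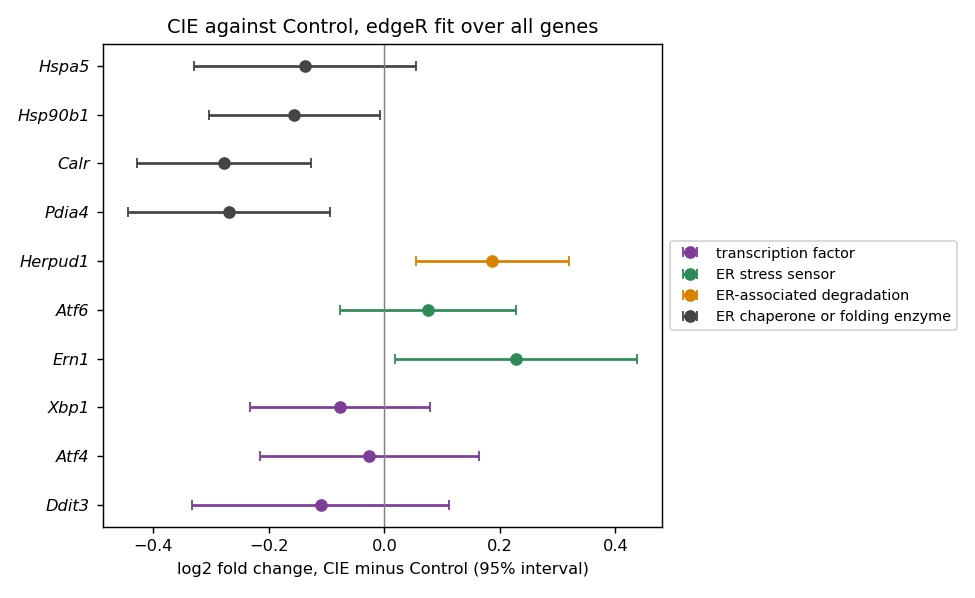
Log2 fold change of each of the 10 ER stress response genes, CIE over Control, with 95% intervals from edgeR's fit on 6 rats per group. The intervals of *Calr*, *Pdia4* and *Hsp90b1* lie below 0, those of *Herpud1* and *Ern1* lie above 0, and the other 5 include 0.

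*Calr* encodes calreticulin, a lumenal chaperone that binds calcium and glycoproteins. Its level in CPM (counts scaled to a common library size with TMM) in CIE rats 1 to 6 was 308, 313, 387, 327, 335 and 302, and in Control rats 7 to 12 it was 362, 406, 411, 391, 436 and 385. All CIE rats but rat 3 were below every Control rat. The log2 fold change was −0.28 (SE 0.07, FDR 0.163, edgeR's test), and the two-sided exact permutation test of 6 rats against 6 gave p = 0.0065, where 0.00216 is the smallest p possible. The FDR was 0.0386 with DESeq2, 0.0192 with limma-voom and 0.0269 without CIE rat 3, within a range of 0.0192 to 0.271 over the alternative analyses and 0.0269 to 0.389 over single rats left out.

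*Pdia4* encodes a disulfide isomerase of the ER lumen. Its CPM was 38.7, 40.2, 46.9, 36.4, 39.6 and 40.7 in CIE rats 1 to 6 and 46.8, 49.3, 45.3, 42.4, 58.8 and 49.8 in Control rats 7 to 12. CIE rat 3 was again the highest of its group, and the other 5 CIE rats were below every Control rat. The log2 fold change was −0.27 (SE 0.08, FDR 0.287, edgeR's test; exact permutation p = 0.0087).

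*Hsp90b1* encodes GRP94, the HSP90 of the ER, and *Hspa5* encodes BiP, the HSP70 of the ER, which holds the sensors inactive in unstressed cells. *Hsp90b1* CPM was 306, 319, 377, 308, 349 and 304 in CIE rats 1 to 6 and 348, 351, 361, 349, 408 and 371 in Control rats 7 to 12. *Hspa5* CPM was 282, 276, 368, 283, 316 and 283 in the CIE rats and 304, 335, 312, 297, 396 and 347 in the Control rats. For each gene 4 CIE rats were below every Control rat, CIE rat 3 was the highest CIE rat, and Control rat 11 was the highest Control rat. The log2 fold change of *Hsp90b1* was −0.16 (SE 0.07, FDR 0.575, edgeR's test; exact permutation p = 0.0368), and it no longer had a nominal p below 0.05 in DESeq2, with DESeq2 size factors or library size only in edgeR, or without any 1 of CIE rats 1, 2, 4 and 6 and Control rats 8, 9, 11 and 12. That of *Hspa5* was −0.14 (SE 0.09, FDR 0.746, edgeR's test; exact permutation p = 0.16), and its 95% interval ran from a level 20.5% lower to one 3.82% higher. The *Hspa5* log2 fold change was −0.08 without Control rat 11 and −0.20, then at a nominal p below 0.05, without CIE rat 3, and it also passed that threshold in limma-voom.

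*Herpud1* encodes an ER membrane protein that recruits parts of the ERAD machinery. Its CPM was 44.5, 50.6, 50.8, 46.6, 54.4 and 45.8 in CIE rats 1 to 6 and 41.1, 43.9, 40.0, 41.9, 44.5 and 45.7 in Control rats 7 to 12. CIE rats 2 to 6 lay above every Control rat, rat 6 by a small margin, and CIE rat 1 was inside the Control range. The log2 fold change was 0.19 (SE 0.06, FDR 0.363, edgeR's test; exact permutation p = 0.0065).

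Of the sensor genes, only *Ern1* was higher in the CIE group at a nominal p below 0.05 in edgeR's test. Its CPM was 24.2, 19.5, 23.4, 24.4, 24.9 and 25.1 in CIE rats 1 to 6 and 22.4, 22, 21.7, 15.1, 18.9 and 20.7 in Control rats 7 to 12. All CIE rats but rat 2 were above every Control rat. The log2 fold change was 0.23 (SE 0.10, FDR 0.558, edgeR's test; exact permutation p = 0.039), and the nominal p was above 0.05 without any 1 of CIE rats 1, 4, 5 and 6 and Control rats 10 and 11. *Atf6* had 76.1, 74.2, 59.5, 75.5, 64.6 and 69.1 CPM in the CIE rats and 67.5, 60.8, 65.1, 72.4, 67.8 and 64.1 CPM in the Control rats. The *Atf6* ranges overlapped, with 3 CIE rats above every Control rat and 1 below all of them. The log2 fold change of *Atf6* was 0.08 (SE 0.07, FDR 0.835, edgeR's test; exact permutation p = 0.305). In limma-voom *Atf6* passed a nominal p below 0.05. *Eif2ak3*, the gene of the PERK sensor, had a log2 fold change of 0.04 (FDR 0.921) and was named after its value was seen.

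The transcription factor genes of the response overlapped between the groups. *Xbp1* had 92.5, 83.5, 99.5, 86.0, 89.1 and 76.8 CPM in CIE rats 1 to 6 and 86.1, 90.0, 92.7, 88.6, 107 and 91.4 CPM in Control rats 7 to 12 (log2 fold change −0.08, SE 0.07, FDR 0.84, edgeR's test; exact permutation p = 0.307). *Atf4* had 86.4, 83.0, 111, 92.6, 97.5 and 99.2 CPM in the CIE rats and 98.6, 115, 92.0, 80.6, 99.9 and 94.2 CPM in the Control rats (log2 fold change −0.03, SE 0.09, FDR 0.961, edgeR's test; exact permutation p = 0.794). *Ddit3* had 15.7, 16.3, 16.3, 14.7, 18.9 and 18.1 CPM in the CIE rats and 19.4, 22.8, 17.8, 14.6, 17.5 and 15.9 CPM in the Control rats (log2 fold change −0.11, SE 0.10, FDR 0.837, edgeR's test; exact permutation p = 0.383). For *Xbp1*, 3 CIE rats were below every Control rat, whereas for *Atf4* and *Ddit3* no CIE rat was outside the Control range. Without Control rat 11 the log2 fold change of *Xbp1* was −0.03, and without Control rat 8 that of *Ddit3* was −0.02. The 95% intervals ran from 14.9% lower to 5.67% higher for *Xbp1*, from 13.9% lower to 12% higher for *Atf4* and from 20.6% lower to 8.12% higher for *Ddit3*. *Ddit3* overlaps *Mars1* in the RefSeq annotation of GRCr8, and how reads shared by overlapping genes were counted is not given in the sources used here. The same limit holds for *Herpud1*, which overlaps *LOC102553339* (229 counts over all rats). It also holds for *Atf6*, which overlaps *LOC100911728*, and for *Ern1*, which overlaps a pseudogene.

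**Figure D2:**
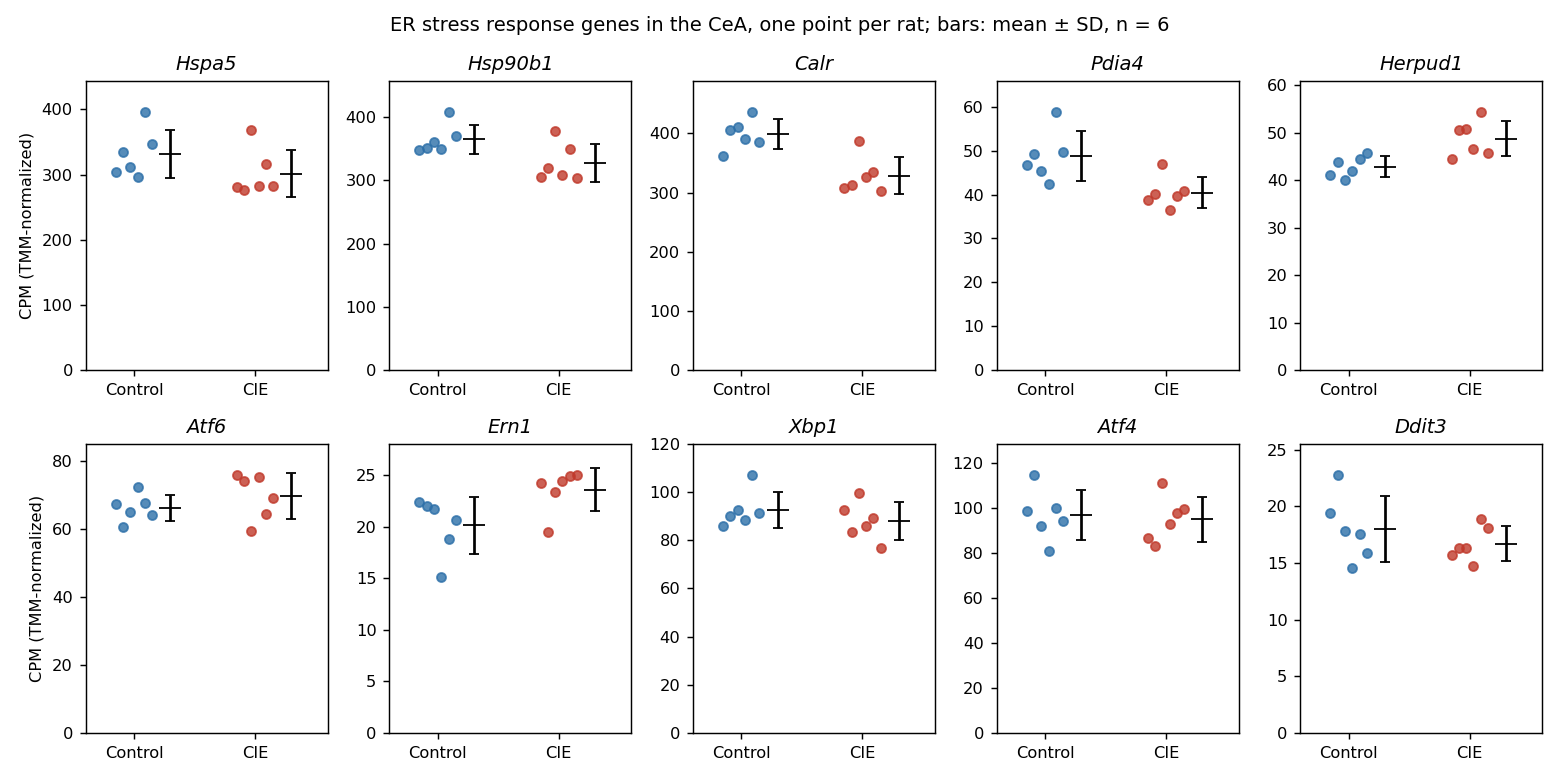
CPM of each of the 10 genes in every rat, with 6 CIE and 6 Control points per panel and the group mean ± SD. For *Calr* and *Pdia4*, 5 CIE points lie below all Control points, and for *Herpud1* and *Ern1*, 5 CIE points lie above all of them.

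Ratios between members within a rat do not depend on how libraries are scaled to each other. Of the 45 member pairs, 5 had ratios that did not overlap between the groups: *Herpud1* with *Calr*, *Pdia4* and *Hsp90b1*, *Xbp1* with *Calr*, and *Ern1* with *Pdia4*. *Herpud1* was in 3 of these pairs and *Calr* in 2. In every pair but *Xbp1* with *Calr*, 1 gene was higher and the other lower at a nominal p below 0.05. These ratios therefore partly restate the single-gene results, and the share over all gene pairs was not computed. Per 100 counts of *Calr* there were 14.5, 16.2, 13.1, 14.2, 16.2 and 15.2 counts of *Herpud1* in CIE rats 1 to 6, and 11.3, 10.8, 9.73, 10.7, 10.2 and 11.9 in Control rats 7 to 12. The lowest CIE rat was above the highest Control rat, and the means were 14.9 ± 1.20 and 10.8 ± 0.770 (SD, n = 6 each), or 1.38-fold higher in the CIE group. This pair was singled out after its values were seen and has no test. For comparison, the ratio of *Herpud1* to every other gene did not overlap for 4.53% of genes, and the ratio of *Calr* to every other gene did not overlap for 5.38%. In the promoters shown above, *Calr* carries an ERSE and *Herpud1* an ERSE-II, so they share none of the elements searched.

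**Figure D3:**
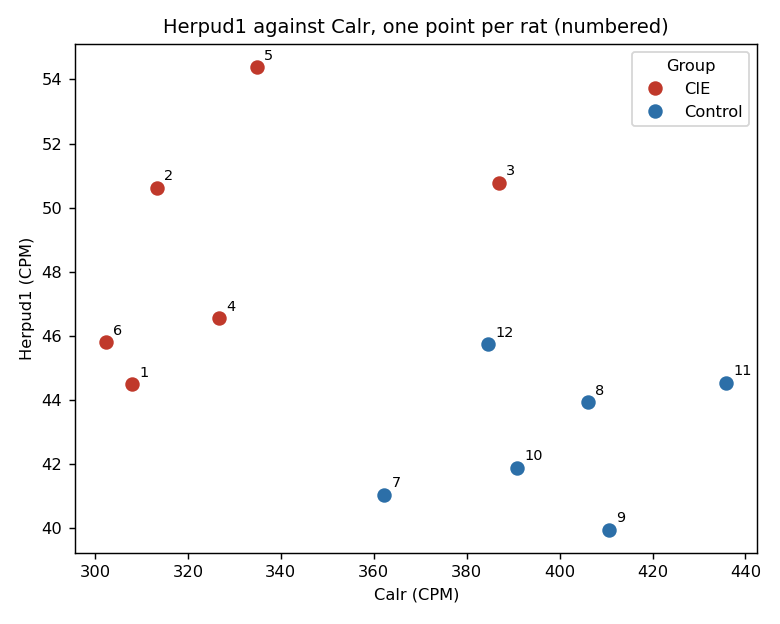
*Herpud1* CPM against *Calr* CPM, 1 point per rat, CIE and Control in different colors. CIE rats sit toward higher *Herpud1* and lower *Calr*, and the counts of *Herpud1* per 100 counts of *Calr* run from 13.1 to 16.2 in the CIE group and from 9.73 to 11.9 in the Control group.

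The chaperone genes varied together from rat to rat. Of 45 member pairs, 12 correlated at 5% FDR over the 12 rats (100000 permutations, Benjamini-Hochberg over the pairs), 10 positively and 2 negatively, and all 12 kept their sign with the group means removed. The smallest r in size among these 12 pairs was 0.69, and that value was used as a cutoff. The members' share at the cutoff, 26.7%, is therefore the same 12 of 45 pairs. Of all pairs among 13295 genes of at least 5 CPM, 7.35% reached it. All values of a rat share its library and scaling. *Hspa5* and *Hsp90b1* had r = 0.92 (permutation p = 2e-05, adjusted 0.0009) and rho = 0.91 (p = 0.00011, adjusted 0.0050), with r = 0.95 within CIE, 0.91 within Control and 0.86 without Control rat 11 and CIE rat 3. *Hsp90b1* and *Calr* had r = 0.90 (permutation p = 8e-05, adjusted 0.0018) and rho = 0.85 (p = 0.00074, adjusted 0.0166), with 0.83 without Control rat 11 and CIE rat 6. The other chaperone pairs among *Hspa5*, *Hsp90b1*, *Pdia4* and *Calr* had r from 0.79 to 0.87. With the group means removed, *Pdia4* and *Calr* fell from 0.83 to 0.62 and *Hsp90b1* and *Pdia4* from 0.87 to 0.78. *Hspa5* was then at 0.89 with *Pdia4* and 0.83 with *Calr*. *Hspa5* and *Xbp1* had r = 0.82 (permutation p = 0.00064, adjusted 0.0058; rho = 0.71, p = 0.0132, adjusted 0.0588), which fell to 0.53 without Control rat 11 and CIE rat 3, so its size rests on them. *Atf6* ran the other way. *Atf4* and *Atf6* had r = −0.81 (permutation p = 0.0016, adjusted 0.0091; rho = −0.67, p = 0.02, adjusted 0.0599) and −0.77 without Control rats 8 and 10. *Hspa5* and *Atf6* had r = −0.71 (permutation p = 0.0093, adjusted 0.0382; rho = −0.82, p = 0.002, adjusted 0.0224), with −0.93 within CIE and −0.28 within Control. *Ddit3* and *Atf4* had r = 0.69 (permutation p = 0.0132, adjusted 0.0493; rho = 0.69, p = 0.0172, adjusted 0.0588), which fell to 0.33 without Control rats 8 and 10. *Herpud1* had no pair at 5% FDR, and its r with *Calr* was −0.41 over all rats, 0.53 within CIE and 0.25 within Control.

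**Figure D4:**
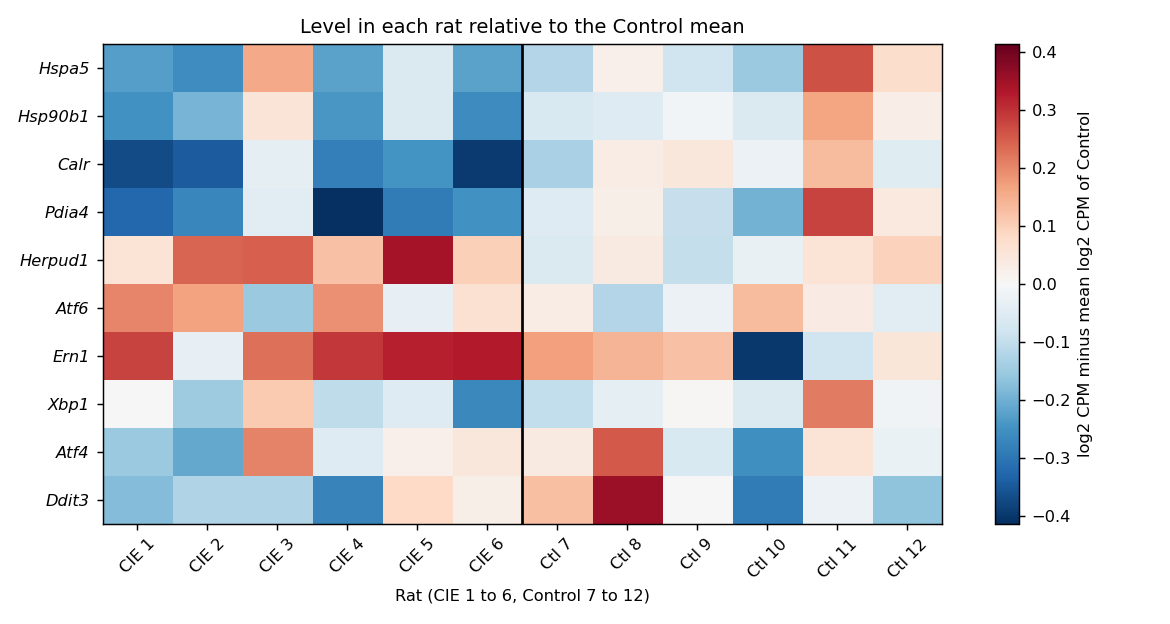
Log2 CPM of the 10 genes in each rat, minus each gene's mean log2 CPM in the Control rats. CIE rats are on the left and Control (Ctl) rats on the right. The chaperone rows move together. In *Hspa5*, *Hsp90b1*, *Pdia4* and *Calr*, CIE rat 3 is the highest CIE rat and Control rat 11 the highest Control rat. For *Pdia4* and *Calr*, CIE rat 3 is still just below the Control mean (−0.05 and −0.04).

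The genes most like *Hspa5* over the 12 rats, with group means removed, among 13294 other genes of at least 5 CPM were *Cct4* (r = 0.95), a subunit of the cytosolic chaperonin, *LOC690117* (0.95), *Oat* (0.95), *Dnah12* (0.94) and *Fkbp4* (0.94), an HSP90 co-chaperone. *Hsp90b1* ranked 12, *Pdia4* 34, *Calr* 148 and *Xbp1* 258 among them. Most like *Atf4* were *Thap3* (r = 0.95), *Unc119* (0.95), *Tmem65* (0.93), *Comtd1* (0.93) and *Fdps* (0.92), and *Ddit3* ranked 752.

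Other genes of the pathway came from 8 lists that held 163 genes, of which 156 were tested. At a nominal p below 0.05, 22 of the 156 passed (14.1%, against 8.31% of all genes), 7 higher and 15 lower. This excess over all genes depended on the setting. With library size only 14 genes passed (8.97%, against 8.39% of all genes), and with limma-voom 49 passed (31.4%, against 17.2%). Of the lowest counts, 8 genes passed without Control rat 8 (5.13%, against 6.47%) and 8 without Control rat 11 (5.13%, against 6.39%). There were 12 without CIE rat 4 (7.69%, against 6.58%), 13 without Control rat 9 (8.33%, against 6.38%) and 39 without CIE rat 3 (25%, against 13.3%). At 5% FDR, *Cth* alone passed edgeR's test, and *Cth*, *Cebpb* and *Ddit4* passed both DESeq2 and limma-voom.

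Of 28 tested genes of the PERK arm and ATF4 targets, 5 were higher and 1 lower at a nominal p below 0.05 (21.4%, against 8.31% of all genes). The list median was 0.03 on the log2 scale, against 0.00 for all genes. *Cth*, which makes cysteine from cystathionine, was at 5.13 ± 0.584 CPM in CIE and 3.11 ± 0.635 CPM in Control (SD, n = 6 each), with log2 fold change 0.72 (SE 0.14, FDR 0.0497, edgeR's test) and no overlap of the groups. Its FDR ran from 0.000156 with DESeq2 to 0.142 with covariates for cortical and striatal markers, and from 0.0384 to 0.147 with a rat left out. It stayed below 0.05 without CIE rat 3 or Control rat 7 and passed above it without any of the other 10 rats. *Cebpb*, a C/EBP transcription factor, had 14.6 ± 2.79 CPM against 10.2 ± 1.35 (log2 fold change 0.51, FDR 0.153, edgeR's test), and *Ddit4*, an inhibitor of mTORC1, had 72.7 ± 12.3 CPM against 53.9 ± 6.78 (0.43, FDR 0.169), higher in 6 of 6 CIE rats than the Control mean in both. With DESeq2 the FDR was 0.0127 for *Cebpb* and 0.0257 for *Ddit4*, and with limma-voom it was 0.0312 and 0.0408. With the oligodendrocyte score as a covariate *Cebpb* was at 0.38 (FDR 0.435), and without CIE rat 6 its FDR was 0.0474. *Ppp1r15b*, the constitutive eIF2alpha phosphatase subunit, had a log2 fold change of 0.15 and the amino acid transporter chain *Slc3a2* one of 0.11. *Chac1*, a glutathione-degrading ATF4 target, was at −0.24. The stress-induced *Trib3*, *Atf3*, *Ppp1r15a* and *Asns* had log2 fold changes of −0.11, −0.28, 0.12 and 0.11, none at a nominal p below 0.05. They were named for their use as markers of this arm after the values were seen.

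ER chaperones and folding enzymes had 1 of 29 tested genes higher and 6 lower at a nominal p below 0.05 (24.1%, against 8.31% of all genes). The list median was −0.06. *Ero1lb*, an ER oxidase now called *Ero1b*, was the higher one (log2 fold change 0.22, FDR 0.246). *Sdf2l1*, a BiP co-factor, was at −0.37, the lectin chaperone *Canx* at −0.18, its partner isomerase *Pdia3* at −0.16, *P4hb* at −0.16 and *Calu*, a calcium-binding ER protein, at −0.13. The IRE1 arm and XBP1 targets had 0 of 20 higher and 1 lower (*Sec61a1*, the translocon channel, −0.12), with a list median of −0.05. That share, 5%, was below the one of all genes. The XBP1 target *Dnajb9*, chosen after its value was seen, was at 0.03 (FDR 0.938).

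ERAD had 1 of 27 tested genes higher (*Erlin1*, log2 fold change 0.32, FDR 0.552) and none lower, with a median of 0.01. That is 3.7%, against 8.31% of all genes at a nominal p below 0.05. *Syvn1*, the HRD1 ligase, and its partner *Sel1l*, also chosen after their values were seen, were at 0.01 and 0.02. The ATF6 arm had 0 of 11 tested genes at a nominal p below 0.05, the smallest p being those of *Creb3l1* (log2 fold change −0.31) and *Nfyb* (0.13). Named after their counts were seen, *Atf6b* of this list, *Rnf5* of the ERAD list and *Cryab* of the heat shock list had a total count of 0. These genes were therefore not tested, and the reason for the zeros was not examined. ER stress and cell death genes had 0 of 15 higher and 2 lower (13.3%), *Bak1* (−0.21) and *Tmbim6*, an ER-resident death suppressor (−0.12). The other eIF2alpha kinases *Eif2ak2* (−0.05) and *Eif2ak4* (0.05) were near 0. Cytosolic heat shock genes had 0 of 23 higher and 5 lower (21.7%), with a median of −0.10. The 5 were *Chordc1* (−0.20), *Hspd1* (−0.18, a mitochondrial chaperonin), *Stip1* (−0.18), *Hsp90aa1* (−0.17) and *Hspb1* (−0.36).

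**Figure D5:**
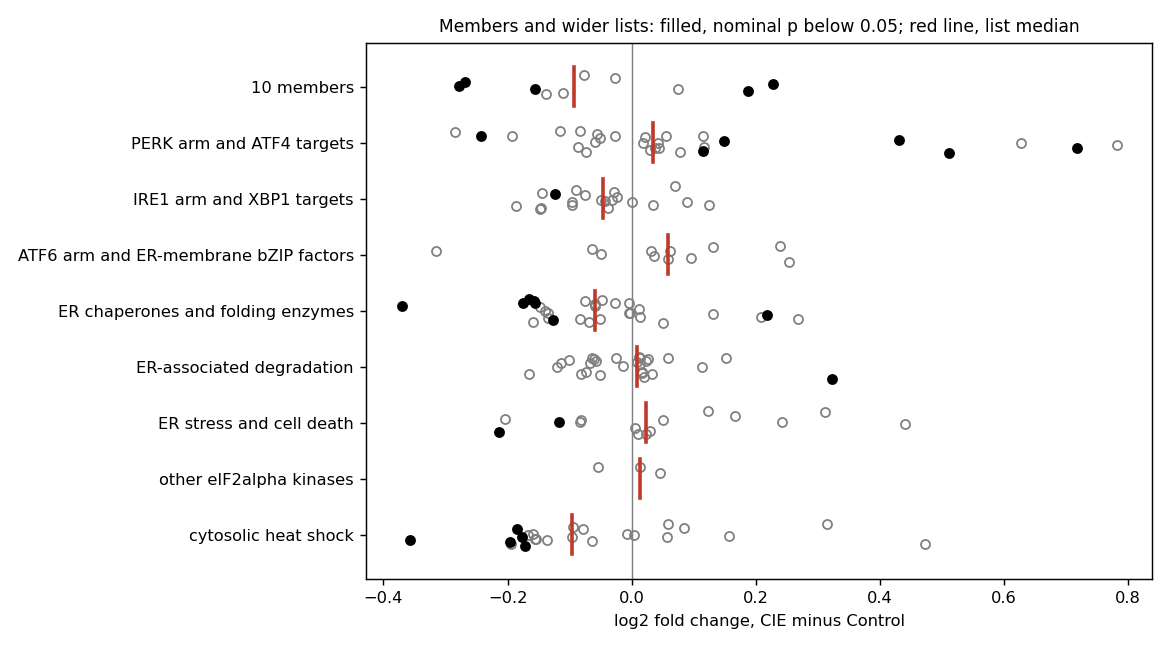
Log2 fold change, CIE over Control, of the tested genes of each wider list, 1 point per gene. *Cth* in the PERK and ATF4 list is the one gene at 5% FDR in edgeR's test (log2 fold change 0.72), and the list medians lie between −0.10 and 0.06.

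Total counts ran from 61978486 to 78441691 in CIE and from 39082548 (Control rat 11) to 95647601 (Control rat 8) in Control. Markers of some cell types differed between the groups. For scale, 8.31% of all genes tested had a nominal p below 0.05 in either direction. At that threshold, 2 of 11 astrocyte markers were higher and 2 lower in CIE. Lower were 1 of 10 microglia, 1 of 10 neuron and 1 of 6 tested choroid plexus markers, with none higher. Of 14 myelinating oligodendrocyte markers, 12 were lower in CIE at a nominal p below 0.05, and their summed level ran from 5832 to 14110 CPM in CIE and from 8948 to 16838 CPM in Control. In these bulk samples, fewer cells of a type and less RNA per cell cannot be told apart. With the oligodendrocyte score (mean log2 CPM of its markers) as a covariate, log2 fold changes were −0.36 for *Calr*, −0.32 for *Pdia4*, −0.24 for *Hsp90b1* and −0.25 for *Hspa5*, all at a nominal p below 0.05, whereas *Herpud1* (0.13) and *Ern1* (0.23) no longer passed it. All 9 cortical glutamatergic markers were higher in CIE (median log2 fold change 0.85), 2 of them at a nominal p below 0.05, with summed levels from 189 to 576 CPM in CIE and from 168 to 357 CPM in Control. CIE rats 1, 2 and 4 had the highest cortical scores. With cortical and striatal scores as covariates, *Calr* was −0.23, *Pdia4* −0.20, *Herpud1* 0.21 and *Ern1* 0.31, all at a nominal p below 0.05, and *Hsp90b1* (−0.10) and *Hspa5* (−0.06) did not pass it. The log2 fold changes of *Hspa5* (−0.25 and −0.06) and *Hsp90b1* (−0.24 and −0.10) therefore depended strongly on the covariate choice. Endothelial markers had 1 higher and 5 lower of 10 (summed level 242 to 311 CPM in CIE, 261 to 333 CPM in Control), and meningeal fibroblast markers had 4 of 9 lower (127 to 207 and 203 to 276 CPM). The part of these 2 cell types in the results was not tested. All 9 central amygdala markers in the file were detected, 2 of them (*Crh*, log2 fold change −0.45, and *Nts*, −0.46) lower in CIE at a nominal p below 0.05. Their summed level ran from 723 to 3071 CPM in CIE and from 740 to 3694 CPM in Control, and that of the striatal projection markers from 419 to 2559 CPM and from 250 to 2769 CPM.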

How the data were processed

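Poly-A RNA-Seq was run on CeA tissue of 12 rats, 6 per group. Per the labels and methods, the authors mapped reads to Rnor_6.0 with BWA, counted them with HTSeq and tested with DESeq2 (v1.26). The gene annotation and the strand and overlap settings of counting are not given in the sources used here. The deposited values are raw counts of 37209 genes, 1 column per rat. Here, counts were filtered by filterByExpr, normalized by TMM and compared, CIE against Control with no covariates, by the two-sided quasi-likelihood F test of edgeR 4.0.16 (R 4.3.3), with FDR by Benjamini-Hochberg over 20944 genes. CPM uses TMM library sizes. Intervals are 95%. Alternatives were DESeq2 1.42.0, limma-voom with sample weights (limma 3.58.1), other scalings and filters, marker scores as covariates, and leaving out each rat. Single genes were also tested by exact permutation over the 12 rats, without adjustment. The code was tested on simulated data.

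The members and lists were chosen with earlier results of these data known. Genes named are the 10 members, in each list those at a nominal p below 0.05 (at most 6, otherwise the 2 with the smallest p), and the 5 most like *Hspa5* and *Atf4*; others are said to be chosen later. The labels do not say how rats were batched, so a batch could not be examined. The paper states that rats were group housed, but which rats shared a cage is not given. Each test treated the rats as independent. The rat numbers do not pair the groups. Promoters and gene spans came from RefSeq (GRCr8), whose build differs from that of the counts.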

Additional observations from a re-analysis of the deposited data

Results flagged for a closer look

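For each member and group of 6 rats, the gap of the highest or lowest rat to its nearest neighbor was divided by the group's range and compared with Dixon's 95% critical value for 6 samples. Of 20 groups tested, 2 passed, where chance flags about 1 in 20. *Ern1* in CIE rat 2, the lowest of its group, was at 19.5 CPM against 23.4 for the next and 25.1 for the highest rat (gap over range 0.693). *Xbp1* in Control rat 11, the highest of its group and the shallowest library, was at 107 CPM against 92.7 for the next and 86.1 for the lowest rat (0.691).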

How the results depend on the processing

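Calls at 5% FDR rested on the tool: edgeR called 0 members, with 5 at a nominal p below 0.05, DESeq2 called 1 and limma-voom 1, and edgeR with a rat left out called 0 to 1. Over all genes, edgeR called 76, DESeq2 286, limma-voom 234, and edgeR with a rat left out 34 to 154. The number of members at a nominal p below 0.05 ran from 3 to 6 with a rat left out, against 6.38 to 13.3% of all genes. With limma-voom it was 7, against 17.2% of all genes, and in the other alternatives it was 4 or 5. The count of wider pathway genes (22, or 14.1%, against 8.31% of all genes) was 14 with library size only (8.97% against 8.39%), 49 with limma-voom (31.4% against 17.2%), 33 with the oligodendrocyte score (21.2% against 11.1%), 15 with the cortical and striatal scores (9.62% against 8.93%), and 8 to 39 with a rat left out (5.13 to 25%, against 6.38 to 13.3% of all genes). The sign turned for *Ddit3* (0.0162) and *Eif2ak2* (0.0642) with the oligodendrocyte score, for *Atf4* (0.0731) and *Atf6* (−0.00751) with the cortical and striatal scores, and with a rat left out for *Atf4* (−0.0747 to 0.0369) and *Eif2ak4* (−0.0011 to 0.0879). *Calr*, *Pdia4*, *Hsp90b1*, *Hspa5*, *Xbp1*, *Herpud1* and *Ern1* kept their sign in every alternative run. With library size only, 60.3% of genes at a nominal p below 0.05 were higher in CIE, against 48.1% with TMM. No paired analysis was possible because the groups share no replicate numbers. The lowest count of any member in any rat was 678 (*Ddit3*), so counting error is small beside the spread between rats.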

Other observations

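All 38 gene symbols with an ERSE or ERSE-II in the RefSeq promoter table were read after the members' values were seen, and 27 of them were tested. Without the members, 22 remained, of which 8 were higher and 14 lower in CIE (median log2 fold change −0.04, with 0.00 over all genes), 2 of them at a nominal p below 0.05, a share near the 8.31% of all genes. Those 2 were *Canx*, a lectin chaperone (−0.18, FDR 0.49), and *Zfp57*, a zinc-finger protein that keeps imprinted loci methylated (−0.33, FDR 0.169).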
